A study of Mus musculus with 9 samples.

Results

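Bone morphogenetic proteins (BMPs) and growth differentiation factors (GDFs) were followed here together with their extracellular antagonists in the developing mouse skull. The set held 10 genes of the 43548 identifiers in the expression table. Of these, 7 encode ligands (Bmp2, Bmp4, Bmp5, Bmp6, Bmp7, Gdf5 and Gdf6) and 3 encode secreted antagonists (Nog, Grem1 and Chrd). They were taken by name as a pathway, with earlier results of these data known. All 10 passed the filter on low values, a mean of at least 0.5 FPKM (fragments counted per transcript length and per sequencing depth) over all libraries. That filter left 18714 genes for testing.

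Poly(A) RNA was sequenced from E14.5 mouse embryos of mixed strain background, when the calvarial bones begin to form. In MCAGF8 embryos (Msx2-Cre; CAG Fgf8b), a Cre recombinase driven by Msx2 regulatory sequences switches on a CAG-driven Fgf8b transgene at the Rosa26 locus in the surface ectoderm, not in the mesenchyme below it. Control embryos, labelled as wild type, were littermates without Cre. The study states that its crosses pass the Fgf8b allele to every offspring, so the controls carried it in the inactive form. After the skin was peeled off, cranial vault tissue was collected from MCAGF8 and from control embryos, and the cartilaginous cranial base was collected from control embryos only. Each of the 3 groups had 3 libraries, and RNA of 3 tissue samples was pooled for each library, so that a group stood for 9 of them. Both control tissues were dissected from control embryos in turn, vault before base, and the sources used here do not state which embryos went into which pool.

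BMP and GDF ligands are secreted dimers that bind pairs of type I and type II receptor kinases on the cell surface, which phosphorylate SMAD proteins that then enter the nucleus. Noggin, Gremlin 1 and Chordin, the products of Nog, Grem1 and Chrd, bind ligands outside the cell and keep them from their receptors. In the head the pathway is known for its part in patterning cranial mesenchyme, in cartilage and bone differentiation, and in keeping sutures open.

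The tissues were first checked against marker lists. By summed cartilage genes, 2 of the 3 base libraries lay below both vault groups. The summed level of 12 cartilage genes was 11230.3 FPKM in base replicate 2, but 1097.9 and 1649.6 FPKM in base replicates 1 and 3, below the 2321.1 to 3336.7 FPKM of the control vault and the 3136.1 to 5765.1 FPKM of the MCAGF8 vault. Col10a1, of hypertrophic cartilage, still had 115, 658 and 74.2 FPKM in the base, and at most 2.05 FPKM in control vault and 0.438 FPKM in MCAGF8. Of the 5 hypertrophic genes listed, 3 had a higher mean in the base than in control vault, and 0 were higher in MCAGF8 than in the base. Base replicate 1 was rich in skeletal muscle RNA, with 10707.3 FPKM over 12 genes. All 12 cartilage genes had a higher mean in MCAGF8 than in control vault, and all 12 epidermal genes did too, with sums of 423 to 1074.4 FPKM against 15.5 to 111 FPKM, so the libraries taken after skin removal still held epidermal RNA, and more of it in MCAGF8. Muscle ran the other way, at 52.7 to 192 FPKM in MCAGF8 and 842 to 5277.1 FPKM in control vault, with 0 of 12 genes higher in MCAGF8. The 10 bone genes summed to 109 to 249 FPKM in MCAGF8 and 1348.2 to 3337.1 FPKM in control vault, again with 0 of 10 higher in MCAGF8. In such bulk samples, fewer cells of a type and less RNA per cell cannot be told apart.

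In GENCODE M21 (GRCm38; the sources used here do not name the build behind the deposited values), 4 of the 10 genes lie on chromosome 2: Bmp2 at chr2:133552159-133562885, Gdf5 at chr2:155941023-155945367, Bmp7 at chr2:172868012-172940321 and Grem1 at chr2:113746164-113758646. Bmp4 lies at chr14:46383520-46390669. The opposite strand carries overlapping genes at Bmp4 (Gm15222, 0.67 to 6.40 FPKM, and Gm15217, at 0 in 8 of 9 libraries), Bmp5 (Gm26903, up to 0.0257 FPKM), Chrd (Thpo, 0.309 to 1.90 FPKM), Gdf5 (Gm15557, up to 0.143 FPKM) and Bmp6 (Txndc5, 295 to 793 FPKM, and 4930579J19Rik, not analysed here). Whether strand was used in the quantification is not stated, so reads of these partners cannot be told apart, and the Bmp6 level in particular is uncertain.

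In control vault, Bmp4 and Bmp7 stood well above the other 8 genes. On the FPKM scale, which is per transcript length, the mean level was 53.0 for Bmp4 and 36.6 for Bmp7, and their ranges did not overlap with each other or with the next gene. Bmp5, Bmp2, Chrd, Nog and Bmp6 followed at 11.9, 11.7, 11.4, 11.4 and 10.4 FPKM, and each overlapped its neighbour in this order. Grem1, Gdf6 and Gdf5 were lowest, at 2.28, 1.97 and 1.87 FPKM, also with overlapping neighbours. Bmp4 and Bmp7 held the first and second place in all 3 groups, although in MCAGF8 vault their ranges overlapped (66.5 to 89.1 and 40.0 to 68.1 FPKM).

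**Figure D1:**
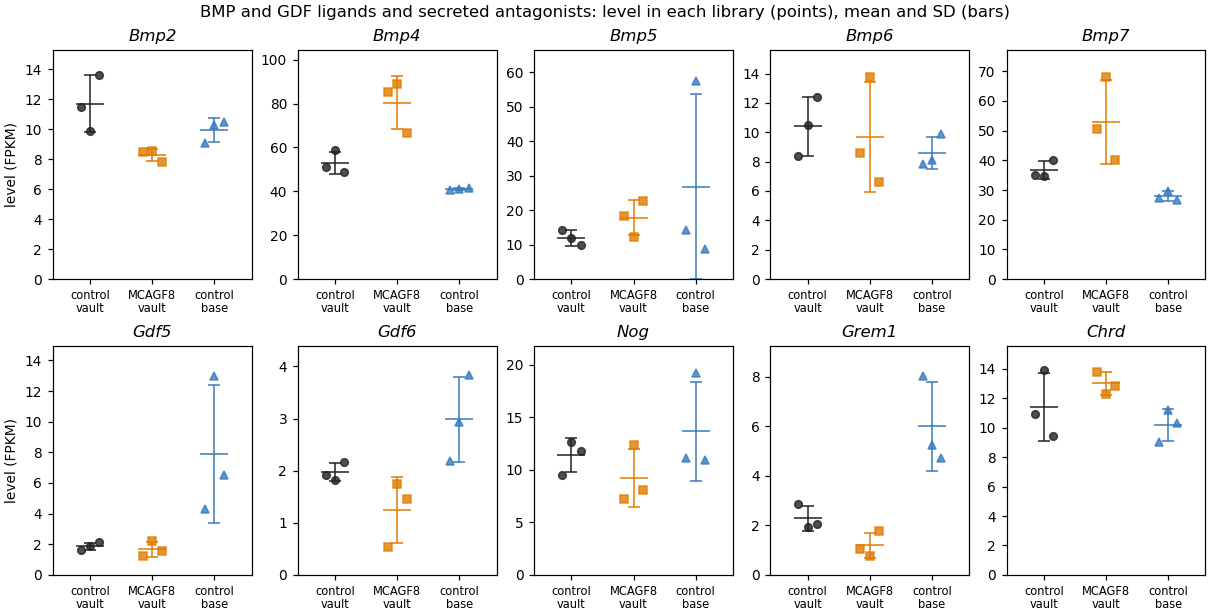
Level of each of the 10 genes in FPKM (vertical axis, from 0, scaled per panel) in control vault (circles), MCAGF8 vault (squares) and control base (triangles); points are the 3 libraries of a group and bars the mean ± SD, the lower end for Bmp5 in the base being cut at 0. Bmp4 lies between 66.5 and 89.1 FPKM in MCAGF8, above every other library, and Bmp5 reaches 57.5 FPKM in base replicate 2 alone.

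The first question was whether ectodermal Fgf8b went with a changed BMP supply in the vault. None of the 10 genes passed the threshold between MCAGF8 and control vault, set at an unadjusted p under 0.05 together with a Benjamini-Hochberg adjusted p under 0.1 in limma, where 0.604% of all tested genes passed (113 of 18714). Of the 10, 3 had an unadjusted p under 0.05, against 6.34% of all genes. These were Bmp4 and Bmp7, with higher values in MCAGF8, and Bmp2, with lower values. The groups did not overlap for 4 genes (Bmp4, Bmp2, Gdf6 and Grem1), where 19.2% of all genes did not overlap. The median log2 difference over the 10 genes was -0.13, beside -0.01 over all genes tested.

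Among the ligands, Bmp4, an inducer of Msx genes in cranial mesenchyme, had 85.4, 89.1 and 66.5 FPKM in the MCAGF8 replicates and 51.3, 58.8 and 49.0 FPKM in control vault. Every MCAGF8 library was above every control vault library. The means were 80.3 ± 12.1 and 53.0 ± 5.12 FPKM (SD, n = 3 each), a ratio of 1.52, and the difference on the log2(FPKM + 1) scale was 0.58 (SE 0.17, 95% interval 0.21 to 0.96, limma adjusted p = 0.32). Bmp7, whose product can pair with BMP2 or BMP4 in heterodimers, had 50.7, 68.1 and 40.0 FPKM against 35.1, 34.6 and 40.1 FPKM. MCAGF8 replicate 3 fell just below the highest control library, and the difference was 0.49 (SE 0.20, limma adjusted p = 0.711).

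Bmp2, a strong inducer of osteoblast differentiation, went the other way, with 8.44, 8.54 and 7.83 FPKM in MCAGF8 and 11.5, 9.88 and 13.6 FPKM in control vault. The groups were separate but close. The difference was -0.44 (SE 0.19, 95% interval -0.87 to -0.02, limma adjusted p = 0.752), or a mean 1.41-fold lower in MCAGF8.

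Bmp5, the gene mutated in short ear mice, which have defects of ear and rib cartilage, had 18.4, 12.3 and 22.6 FPKM in MCAGF8 and 14.1, 11.8 and 9.73 FPKM in control vault, and the groups overlapped. Its interval was the widest of the set, from -0.74 to 1.77 around 0.52. Bmp6, a ligand of hypertrophic cartilage and of iron metabolism, ranged from 6.59 to 13.8 FPKM in MCAGF8 and from 8.41 to 12.4 FPKM in control vault. The groups overlapped, and the much more abundant Txndc5 on the opposite strand limits this value.

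Both joint-forming ligands were scarce in the vault. Gdf5, the classical marker of the joint interzone, had 1.23, 2.20 and 1.54 FPKM in MCAGF8 and 1.63, 1.86 and 2.12 FPKM in control vault, a difference of -0.12 (95% interval -0.89 to 0.64). Gdf6, which is needed for the coronal suture and several joints, had 0.535, 1.74 and 1.45 FPKM against 1.91, 1.83 and 2.17 FPKM. The Gdf6 groups were separate, yet the difference of -0.45 (SE 0.27, limma adjusted p = 0.969) did not pass.

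Of the antagonists, Grem1 was the one whose vault groups were separate. It had 1.06, 0.773 and 1.76 FPKM in MCAGF8 and 2.85, 1.92 and 2.07 FPKM in control vault, with means of 1.2 ± 0.508 and 2.28 ± 0.496 FPKM (SD, n = 3 each). The difference was -0.59 (SE 0.27, 95% interval -1.19 to 0.01, limma adjusted p = 0.803). Nog, the antagonist tied to suture patency, had 7.19, 12.4 and 8.13 FPKM against 9.56, 12.7 and 11.8 FPKM, and the groups overlapped (difference -0.29, 95% interval -0.92 to 0.33). Chrd, the antagonist that is cleaved by tolloid proteases, had 13.8, 12.3 and 12.8 FPKM against 10.9, 13.9 and 9.44 FPKM, with all 3 MCAGF8 libraries inside the control range (difference 0.18, 95% interval -0.26 to 0.63). No gene of the set passed the threshold between the vault groups when any 1 of the 9 libraries was left out, and a p that misses the threshold does not show that the levels were equal.

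**Figure D2:**
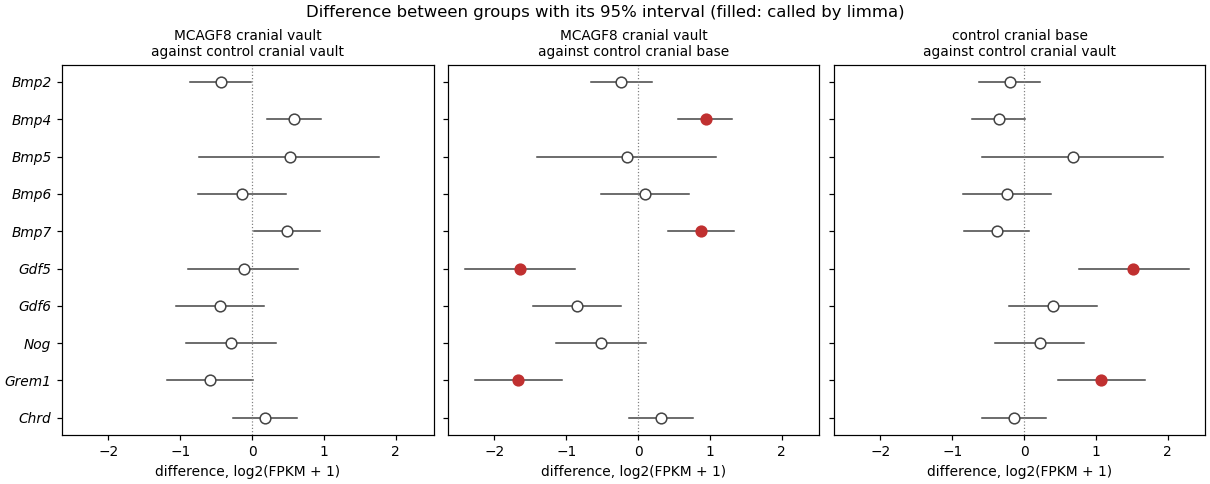
Difference between group means on the log2(FPKM + 1) scale (horizontal axis) for each gene (rows) in the 3 comparisons; points are estimates, lines their 95% intervals from limma, and filled points passed the threshold. None of the 10 passed between the vault groups, whereas Bmp4, Bmp7, Gdf5 and Grem1 did between MCAGF8 vault and control base.

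Against the control cranial base, the study's reference for hyaline cartilage, more of the set stood apart. Of the 10 genes, 4 passed the threshold, where 8.39% of all genes did (1571 of 18714). Bmp4 and Bmp7 were higher in the MCAGF8 vault, and Gdf5 and Grem1 were lower. The groups did not overlap for 7 genes, against 21.9% of all genes: Bmp4, Bmp7 and Chrd were above the base, and Bmp2, Gdf5, Gdf6 and Grem1 below it. The median log2 difference of the set was -0.20, beside -0.07 over all genes. This comparison and the one above share the 3 MCAGF8 libraries, and the base is another tissue as well as another genotype.

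In the base, Bmp4 had 40.8, 41.0 and 41.5 FPKM, the narrowest spread of the set within the base. The MCAGF8 mean was 1.95-fold this level (difference 0.94, SE 0.17, limma adjusted p = 0.014). The base libraries differed widely in cartilage, muscle and epidermal RNA, and the part of tissue content in the Bmp4 values was not tested. Bmp7 had 27.3, 29.8 and 26.5 FPKM in the base, and every MCAGF8 library was above them. The MCAGF8 mean was 1.90-fold this level (difference 0.87, SE 0.20, limma adjusted p = 0.0407). The Bmp7 call was lost in limma without base replicate 3 (adjusted p = 0.103), without MCAGF8 replicate 1 (0.145) or without MCAGF8 replicate 2 (0.116), and with only the libraries of both groups in the fit (0.132), while Bmp4 passed in every alternative that was run.

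Grem1 had 8.04, 5.23 and 4.72 FPKM in the base, and no MCAGF8 library exceeded 1.76 FPKM. The mean was 5.0-fold lower in MCAGF8 (difference -1.67, SE 0.27, limma adjusted p = 0.0108). Gdf5 had 4.29, 13.0 and 6.53 FPKM in the base, highest in the cartilage-rich replicate 2 but above both vault groups in all 3 libraries. The mean was 4.78-fold lower in MCAGF8 (difference -1.65, SE 0.34, limma adjusted p = 0.0257, or 0.118 without MCAGF8 replicate 1). Gdf6, at 2.19, 2.94 and 3.83 FPKM in the base, was also above every MCAGF8 library but did not pass (difference -0.85, SE 0.27, limma adjusted p = 0.118), except without base replicate 2 (0.0984).

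The other 5 genes did not pass against the base. Bmp2 had 9.06, 10.3 and 10.5 FPKM there, just above the MCAGF8 libraries, and Chrd had 9.06, 11.2 and 10.3 FPKM, just below them, with differences of -0.24 and 0.32. Bmp6 had 7.87, 8.08 and 9.88 FPKM and overlapped MCAGF8, as did Nog at 11.1, 19.2 and 10.9 FPKM. Bmp5 is described further on, since 1 base library set its mean.

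Upstream sequence from RefSeq (GRCm38.p6) is shown for Bmp4 and Grem1, the members that passed against the base in opposite directions under every alternative in which they were tested. Each is the 250 bases before the annotated start, written 5′ to 3′ on the gene's strand, and capitals mark a motif match.
Bmp4, chr14:46390670-46390919, minus strand: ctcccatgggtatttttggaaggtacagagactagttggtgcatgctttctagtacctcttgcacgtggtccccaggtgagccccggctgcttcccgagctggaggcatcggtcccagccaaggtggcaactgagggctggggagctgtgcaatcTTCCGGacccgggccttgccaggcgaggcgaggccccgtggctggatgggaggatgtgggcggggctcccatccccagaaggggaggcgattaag
Grem1, chr2:113758649-113758898, minus strand: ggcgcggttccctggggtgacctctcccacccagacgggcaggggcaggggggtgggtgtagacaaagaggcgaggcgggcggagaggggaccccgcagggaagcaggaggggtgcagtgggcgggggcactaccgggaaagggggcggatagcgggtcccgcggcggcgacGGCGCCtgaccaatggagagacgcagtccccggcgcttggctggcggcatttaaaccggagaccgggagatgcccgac
Searched on both strands were the ETS core CCGGAA, the GC-rich SMAD motif GGCGCC, the TCF/LEF core CTTTGA and the TATA box TATAAA, none of which contains another. In Bmp4 the ETS core was found on the opposite strand (read as TTCCGG), with its first base 95 bases before the start, and in Grem1 the SMAD motif began 78 bases before the start. Of 32851 promoter windows of 250 bases before and 50 after a start, 14.9% hold the ETS core, 11.9% the SMAD motif, 16.0% the TCF/LEF core and 13.6% the TATA box. The table had an entry for 5 of the 10 genes: Chrd also held the SMAD motif, and Bmp5 and Bmp6 held none of the 4. A match is a run of letters, not a shown binding site. The Grem1 window held 28 CpG pairs and that of Bmp4 12, where the median over all windows was 7.

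Within control embryos, the base was compared with the vault. Both tissues were dissected from control embryos in turn, so the groups can share embryos, while the fit took them as independent. Of the 10 genes, 2 passed the threshold, both higher in the base, where 3.06% of all genes passed (573 of 18714). Gdf5 was 4.24-fold higher in the base (7.92 ± 4.50 against 1.87 ± 0.245 FPKM, SD, n = 3 each, difference 1.52, SE 0.34, limma adjusted p = 0.0672), and Grem1 2.63-fold higher (6.0 ± 1.79 against 2.28 ± 0.496 FPKM, difference 1.07, SE 0.27, limma adjusted p = 0.0947). Groups did not overlap for 5 genes, where 15.5% of all genes did not overlap: Gdf5, Gdf6 and Grem1 lay higher in the base, and Bmp4 and Bmp7 lower. The median log2 difference of the set was 0.04, beside 0.07 over all genes.

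Both calls were lost in fits without certain single libraries. Gdf5 lost its call without base replicate 3 (limma adjusted p = 0.133), without MCAGF8 replicate 1 (0.120) or 3 (0.112), and without control vault replicate 1 (0.209), 2 (0.188) or 3 (0.193). Grem1 lost its call without any library but base replicate 2, with adjusted p from 0.113 to 0.309. For Bmp4 and Bmp7 the base was lower by less than the fit could tell from 0, with differences of -0.35 (limma adjusted p = 0.426) and -0.38 (limma adjusted p = 0.513).

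Bmp5, Nog and Gdf5 had their highest values in the cartilage-rich base library. Bmp5 had 14.1, 57.5 and 8.61 FPKM in the base, so replicate 2 was more than any other library of the series, while replicates 1 and 3 lay near the control vault. Nog peaked in the same library at 19.2 FPKM and Gdf5 at 13.0 FPKM. Without base replicate 2 the Bmp5 difference between MCAGF8 and base turned from -0.16 to 0.60 and that between base and vault from 0.68 to -0.08, and the Nog difference between base and vault turned from 0.22 to -0.03. Bmp4 showed no such peak. Over the 9 libraries, which share the tissue differences above, the correlation of the level with summed cartilage markers on the log2 scale was 0.76 for Bmp5, 0.54 for Chrd, 0.39 for Nog, 0.34 for Bmp7, 0.31 for Bmp4 and 0.20 for Gdf5, and ran from -0.35 to -0.08 for Grem1, Bmp2, Gdf6 and Bmp6, given as a description.

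**Figure D3:**
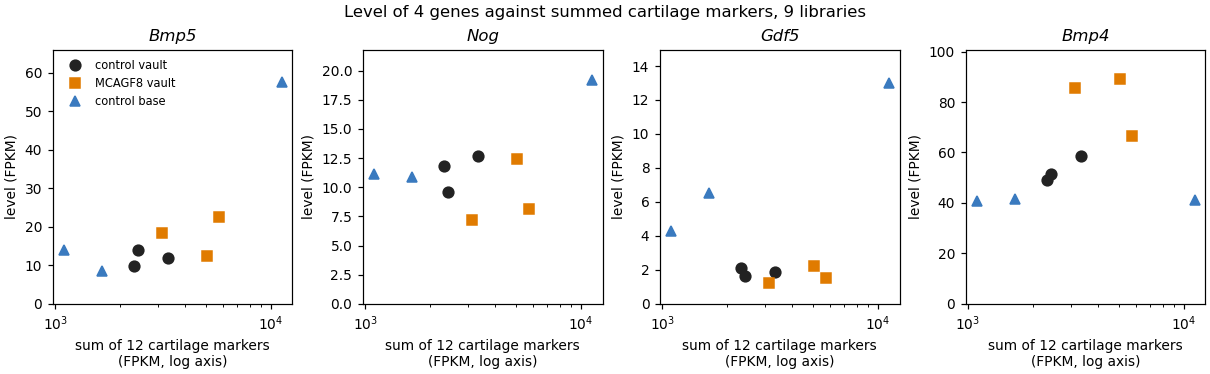
Level of Bmp5, Nog, Gdf5 and Bmp4 in FPKM (vertical axis, from 0) against the summed FPKM of 12 cartilage genes (horizontal log axis) in the 9 libraries, by group. The single triangle at the far right is base replicate 2, with 11230.3 FPKM of cartilage genes, where Bmp5 reaches 57.5 FPKM while Bmp4 stays at 41.0 FPKM.

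Tissue content differed between the groups in other ways as well. Between vault groups, summed epidermal genes were higher in MCAGF8, and summed muscle and bone genes were lower. The ranges of summed cartilage genes overlapped, at 3136.1 to 5765.1 FPKM in MCAGF8 and 2321.1 to 3336.7 FPKM in control vault. Endothelial genes were also higher in MCAGF8 (361 to 481 against 299 to 345 FPKM, 7 of 8 genes), and tendon and joint genes lower (251 to 317 against 507 to 698 FPKM, 0 of 6 higher). Brain and neuron genes summed to 301 to 976 FPKM in the base and 58.5 to 90.4 FPKM in MCAGF8 vault, with 0 of 11 higher in MCAGF8. None of the 12 epidermal, 12 cartilage or 12 muscle genes had a mean of 0 in any group. Of the 10 bone genes, 1 had a mean of 0 in MCAGF8. Within the base, the epidermal sum ran from 71.6 to 728 FPKM while Bmp4 ran from 40.8 to 41.5 FPKM. The part of tissue content in the vault and base differences was not tested.

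Ligands were also summed against antagonists, as a description. In MCAGF8 vault the 7 ligands summed to 173, 196 and 147 FPKM, and in control vault to 124, 129 and 129 FPKM. The 3 antagonists summed to 22.1, 25.5 and 22.7 FPKM in MCAGF8 and 23.3, 28.6 and 23.3 FPKM in control vault. The ligand sum was therefore 7.85, 7.69 and 6.47 times the antagonist sum in MCAGF8, above the 5.33, 4.52 and 5.55 of control vault and the 3.74, 4.56 and 4.14 of the base. Bmp4 and Bmp7 carried 78.5, 80.3 and 72.7% of the ligand sum in MCAGF8, 69.7, 72.3 and 69.0% in control vault and 64.5, 43.6 and 63.3% in the base. These sums weigh transcripts, not secreted protein, and Bmp4 and Bmp7 dominate them.

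The rest of the pathway was read from 5 lists with 71 genes, 65 of them tested: other ligands, other secreted modulators, receptors, SMADs and genes known to respond to BMP. Between vault groups 3 of the 65 passed, all lower in MCAGF8, where 0.604% of all genes passed, 43 higher and 70 lower. Mstn, the muscle-restricted ligand myostatin, had 0.102, 0.0674 and 0.675 FPKM in MCAGF8 and 3.94, 7.74 and 4.75 FPKM in control vault (difference -2.33, SE 0.36, limma adjusted p = 0.0494). Hfe2, which encodes the muscle and liver BMP co-receptor hemojuvelin, had 0.168, 0.309 and 1.02 FPKM against 6.35, 24.0 and 7.68 FPKM (difference -3.0, SE 0.59, limma adjusted p = 0.0969). The third, Sp7, the osteoblast factor Osterix, had 17.5, 20.6 and 16.0 FPKM against 105, 55.4 and 123 FPKM (difference -2.25, SE 0.40, limma adjusted p = 0.0763).

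Muscle genes were lower in MCAGF8 as a list, as given above, and their part in the Mstn and Hfe2 values was not tested. All 3 calls were lost in limma without MCAGF8 replicate 1 or 2 or without control vault replicate 1 or 3, with adjusted p from 0.147 to 0.426 in those fits. Hfe2 and Sp7 were also lost without MCAGF8 replicate 3 (0.181 and 0.212), Hfe2 without control vault replicate 2 (0.169) and base replicate 3 (0.169), and Sp7 without base replicate 1 (0.111). With all libraries in the fit, the 3 calls were also lost with no filter on low values (0.118 to 0.224) and with no moderation of the variance (0.263 to 0.433), and that of Hfe2 with quantile normalization (0.123) and a common upper quartile (0.109). None of the 10 genes listed as receptors and co-receptors passed in limma (2 had an unadjusted p under 0.05), with a median difference of -0.02. The co-receptor gene Hfe2 was not among them, as it was listed with the other secreted modulators. None of the 8 SMADs passed (0 had an unadjusted p under 0.05), with a median difference of 0.10.

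Of the 12 genes known to respond to BMP, 0 rose and 1 fell between the vault groups in limma (1 and 4 at an unadjusted p under 0.05), with a median difference of 0.07. Beside the called Sp7, those at the unadjusted limit were Msx2, higher by 0.56, and Dlx6 (-2.09), Dlx5 (-1.08) and Hey1 (-0.75), lower. Their limma adjusted p was 0.53, 0.177, 0.254 and 0.538, and they too were named after their values were seen. Id1, the standard readout of BMP-activated SMADs and named after its values were seen, had 248, 434 and 224 FPKM in MCAGF8 and 187, 252 and 258 FPKM in control vault. The groups overlapped, and the difference was 0.33 (95% interval -0.36 to 1.01, limma adjusted p = 0.969).

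Against the base, 11 of the 65 passed, 7 higher and 4 lower in MCAGF8 vault, where 8.39% of all genes passed, 558 higher and 1013 lower. Msx2 and Msx1, homeobox genes of the calvarial mesenchyme, led the higher group: Msx2 had 110, 152 and 99.2 FPKM in MCAGF8 and 10.7, 11.8 and 13.8 FPKM in the base (difference 3.19, SE 0.20, limma adjusted p = 0.000122). Msx1 had 150, 153 and 75.9 FPKM against 8.13, 11.7 and 66.7 FPKM, so that base replicate 3 came close to the vault (difference 2.61, SE 0.63, limma adjusted p = 0.0476). It lost its call without MCAGF8 replicate 1 (0.172) or 2 (0.153) or without base replicate 1 (0.128), and with only the libraries of both groups (0.132) or no moderation (0.168).

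Htra1, which encodes a secreted protease, and Inhbb, the activin B subunit, were likewise higher, by 2.13 (SE 0.23) and 2.07 (SE 0.20), as was the modulator Kcp by 1.28 (SE 0.37). Lower were Hfe2 (-3.74, SE 0.59), Mstn (-2.50, SE 0.36) and the Notch and BMP target Hey1 (-1.27, SE 0.27). The limma adjusted p was 0.0886 for Kcp, 0.0274 for Hey1 and at most 0.0102 for the other 4. Of the fits with 1 library left out, Kcp kept its call in those without base replicate 2, MCAGF8 replicate 2 or control vault replicate 3, reaching 0.288 without MCAGF8 replicate 1, and lost it with no filter (0.145), a common sum (0.141), the libraries of both groups only (0.158) and no moderation (0.209). Hey1 lost its call without MCAGF8 replicate 1 (0.127). The other called genes were Eng and Bmp15, higher in MCAGF8, and Rgmb, lower. The Bmp15 means were low, 1.16 FPKM in MCAGF8 and 0.266 FPKM in the base.

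Between the control tissues 5 of the 65 passed, 1 higher and 4 lower in the base, where 3.06% of all genes passed, 347 higher and 226 lower. Sostdc1, a secreted antagonist of BMP and Wnt signals in skin appendages and teeth, had 31.7, 16.7 and 69.2 FPKM in the base and 9.34, 5.88 and 5.35 FPKM in control vault (difference 2.16, SE 0.43, limma adjusted p = 0.0468). Its level in the base followed the order of the epidermal sum, 535, 71.6 and 728 FPKM. In MCAGF8 vault it did not, with 23.8, 24.8 and 20.1 FPKM beside sums of 464, 423 and 1074.4 FPKM. The part of epidermal RNA was not tested. Every MCAGF8 library was above control vault, but Sostdc1 did not pass there (difference 1.64, SE 0.43, limma adjusted p = 0.253). The call between base and vault was lost without control vault replicate 2 (0.148) or 3 (0.181), with only the libraries of both groups (0.184) and with no moderation (0.175). Msx2, Inhbb, Htra1 and the osteoblast factor Runx2 were lower in the base, by differences of -2.63, -1.68, -1.36 and -0.91. Htra1 lost its call without control vault replicate 3 (limma adjusted p = 0.124), and Runx2 lost its call without any 1 of the 6 vault libraries (0.125 to 0.302) and with no filter (0.121), a mean of at least 5 FPKM (0.102), a common sum (0.219), the libraries of both groups only (0.246) and no moderation (0.187). Leaving out base replicate 2 raised the number of pathway calls from 3 to 5, from 11 to 21 and from 5 to 9 in the 3 comparisons, and leaving out MCAGF8 replicate 1 brought them to 0, 5 and 4.

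**Figure D4:**
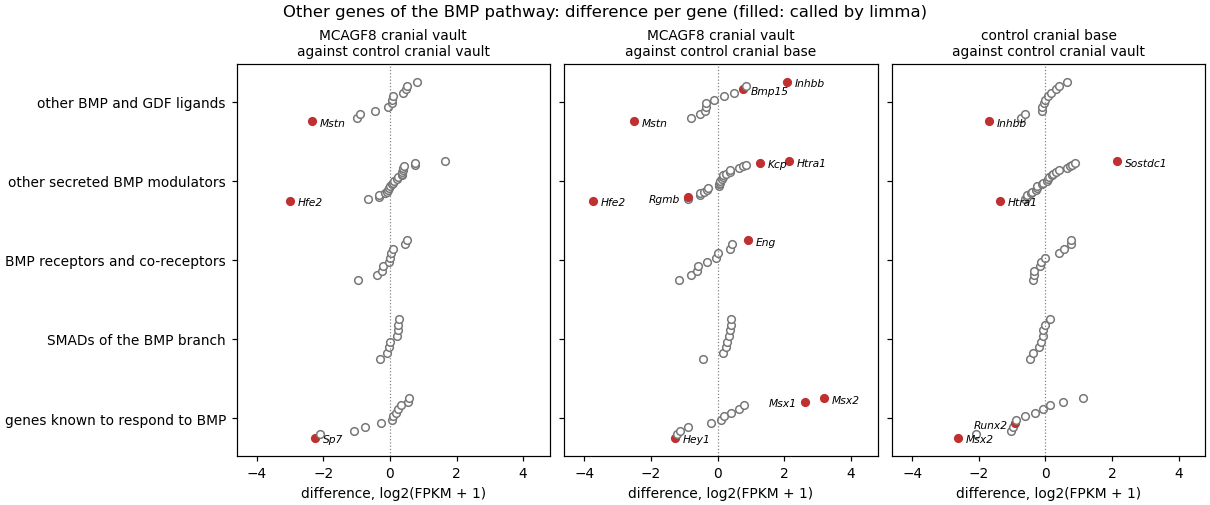
Difference on the log2(FPKM + 1) scale (horizontal axis) of each tested gene of 5 pathway lists (rows) in the 3 comparisons; each point is a gene, spread vertically for visibility only, and filled, named points passed the threshold. Between vault groups the 3 filled points, Mstn, Hfe2 and Sp7, all lie below 0.

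For each of the 10 genes the most similar profiles over the 9 libraries were listed, by Pearson r on the log2 scale among genes with a mean of at least 5 FPKM. The closest to Bmp4 were Chst1 (0.987), Slc40a1 (0.974) and Tmem26 (0.959), and to Bmp7 A4galt (0.965), Nkd1 (0.959) and Snai1 (0.958). Bmp5 was closest to Wnk4 (0.947), followed by Hapln1, a cartilage link protein (0.945). Gdf5 was closest to Pam (0.964), followed by Col10a1, the collagen of hypertrophic cartilage (0.952). For Grem1 they were Trappc2 (0.968), Cfap36 (0.952) and Fgf7 (0.951). Bmp2 was closest to Slc13a5 (0.956), with Dlx6 among its 3 (0.921), Gdf6 to Aldoc (0.964), Bmp6 to Hsd17b11 (0.949) and Chrd to Fancg (0.953). Nog had the weakest leading match, Aif1l at 0.887. With 9 libraries from 3 tissues, such values mostly restate differences between the groups and stand as a description.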

How the data were processed

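Libraries were made with a stranded poly(A) mRNA kit and sequenced as single-end reads. Per the study's methods, the authors aligned reads with gSNAP and computed FPKM with Cufflinks, and the deposited matrix holds these FPKM values per Ensembl identifier. The sources used here give no version, genome build, annotation or strand setting. The table holds no counts, so the depth per library is unknown and intervals for counting error could not be computed; 16006 to 17281 genes reached 1 FPKM per library.

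The 43611 rows were summed by identifier to 43548, and 9 genes with a placeholder (999999999) were dropped. Genes with a mean of at least 0.5 FPKM (18714) were tested on log2(FPKM + 1) in limma 3.58.1 (R 4.3.3) with 1 mean per group over all 9 libraries, a mean-variance trend and two-sided moderated tests, checked on simulated data. Called genes passed 2 limits, an unadjusted p under 0.05 and, after Benjamini-Hochberg adjustment, a p under 0.1. The pseudocount understates changes of low genes. FPKM of a gene also depends on the other RNA in its library. Nothing in the labels says that the embryos behind different pools were unrelated, so p-values measure the spread between these pools.

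The 10 members and all lists were chosen with earlier results of these data known. Named by rule are all 10 genes and, of the pathway lists, up to 8 called genes per comparison by absolute difference. Outside this rule, the remaining called genes against the base, Eng, Bmp15 and Rgmb, were named too. Id1 and the pathway genes at an unadjusted p under 0.05 between vault groups were also named, after their values were seen. Where fewer than 3 were called, genes with an unadjusted p under 0.05 would have been added, which was not needed. Profile likeness took the 3 genes with the highest r. Of the listed genes, Gdf1 and Tubb3 were not matched. Alternatives varied pseudocount, filter, scaling, samples in the fit, replicate block, variance moderation, repeated identifiers and threshold, and left out each library.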

Additional observations from a re-analysis of the deposited data

How the results depend on the processing

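Between MCAGF8 and control vault, 0 of the 10 genes passed under every alternative except an unadjusted p under 0.05 alone, which gave 3. Against the base, 4 passed, or 2 at a mean of at least 5 FPKM (7 genes tested, Gdf5 and Grem1 not among them), 3 with only the libraries of both groups (Bmp7 lost), and 2 to 5 when 1 library was left out, 2 being without MCAGF8 replicate 1. Between base and vault, 2 passed, or 1 with a pseudocount of 0.1 or a common upper quartile, 0 with no filter, a mean of at least 5 FPKM, quantile normalization, a common sum, the libraries of both groups only or no moderation, and 0 to 2 when 1 library was left out.

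Same-numbered libraries showed no steady likeness: their deviations correlated from -0.549 to 0.37, above 0.1 in 2 of 9 pairs. Such deviations, taken from group means of 3 libraries, sum to 0 in each group, so they cannot decide whether pools shared embryos. With the replicate number as a block, 0 genes were called between vault groups, 3 against the base (Bmp7 lost) and 0 between base and vault. Of the named pathway genes the block ended the calls of Mstn (adjusted p = 0.19), Hfe2 (0.289) and Sp7 (0.158) between vault groups, of Kcp (0.183) against the base, and of Sostdc1 (0.1) and Runx2 (0.209) between base and vault.

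Of the members' differences under the alternatives, 543 kept direction and side of the threshold, 34 lost their call, 5 gained one and 9 changed sign, none of the last being called. Bmp5 against the base became 0.04 with a common sum and, over the fits with 1 library left out, ran from -0.70 to 0.60 (without base replicate 2; 0.07 without MCAGF8 replicate 2), and between base and vault from -0.08 (without base replicate 2) to 1.22. Bmp6 between vault groups became 0.01 with a common sum and ran from -0.41 to 0.07 (without MCAGF8 replicate 3) over the fits with 1 library left out, and against the base from -0.17 (without MCAGF8 replicate 2) to 0.32. Between base and vault, Nog ran from -0.03 (without base replicate 2) to 0.35 and Chrd from -0.25 to 0.01 (without control vault replicate 2). The cause was not tested. For the named pathway genes, whose alternatives were added after seeing the data, 253 values kept their side, 63 lost their call and 0 changed sign. A common sum moved the median difference of all genes between vault groups from -0.009 to 0.132, and against the base from -0.066 to 0.112.

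Over all genes, calls between vault groups ranged from 0 without moderation to 191 with a pseudocount of 0.1 among the fits on all 9 libraries with the adjusted threshold. Against the base, 35.5% of calls were higher in MCAGF8, or 58.7% after quantile normalization; between base and vault, 60.6% were higher in the base, or 37.7%. With 3 pools per group and no counts, small differences in low genes such as Gdf5, Gdf6 and Grem1 could not be resolved.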
